A study of Homo sapiens
Mus musculus and Mus musculus and Homo sapiens with 16 samples.

Results

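Transcript levels of 9 mouse chemokine genes were examined in MS-5 stromal cells cultured alone and in contact with REC-1 lymphoma cells. The genes were Ccl2, Ccl7, Ccl5, Cxcl1, Cxcl2, Cxcl5, Cxcl12, Cxcl10 and Cx3cl1, which are 9 of the 49671 genes of the mouse count table. They were taken by symbol from a list that had been drawn up with these measurements known. For that reason their differences between culture conditions are given here as a description without p-values, and how many of them met the limits applied to all genes is stated as a count that supports nothing. MS-5 is an established line of stromal cells from mouse bone marrow, and REC-1 is an established human line of mantle cell lymphoma, a B-cell tumour. REC-1 cells were kept in coculture with MS-5 cells for 24 h without any drug or genetic change. RNA was sequenced from 4 libraries each of MS-5 cells alone, REC-1 cells alone (Sep), REC-1 cells that floated above the coculture (Susp), and the adherent layer of the coculture (Adh). The Adh RNA came from MS-5 cells and the REC-1 cells attached to them, and its reads were assigned to mouse or human by computer, so each Adh library gave a mouse and a human value.

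Chemokines are small secreted proteins that guide the movement of leukocytes through G protein-coupled receptors. Stromal cells of bone marrow are a known source of them, and CXCL12 from these cells holds blood stem cells and B cells in the marrow through the receptor CXCR4. The classes are named by the spacing of the first cysteines of the mature protein. CC chemokines such as Ccl2 and Ccl7 mainly attract monocytes. CXC chemokines that carry glutamate, leucine and arginine before the first cysteine (ELR), such as Cxcl1, Cxcl2 and Cxcl5, attract neutrophils, whereas those without it, such as Cxcl12 and Cxcl10, act mainly on lymphocytes. Cx3cl1 (fractalkine) is made as a membrane-bound protein on a mucin stalk and can be shed by the proteases Adam10 and Adam17.

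The class of each gene can be read in its coding sequence. The stretches below were taken from the GENCODE release M21 transcripts of the mouse (GRCm38) and are shown because the class orders the results. Capitals mark the codons of the first cysteines of the mature protein and, where present, those of glutamate, leucine and arginine.
Ccl2: aacgccccactcaccTGCTGCtactcattc
Ccl7: cccaatgcatccacaTGCTGCtatgtcaag
Ccl5: tcggacaccactcccTGCTGCtttgcctac
Cxcl1: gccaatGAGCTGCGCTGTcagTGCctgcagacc
Cxcl2: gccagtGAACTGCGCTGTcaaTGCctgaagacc
Cxcl5: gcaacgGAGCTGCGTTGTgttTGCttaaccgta
Cxcl12: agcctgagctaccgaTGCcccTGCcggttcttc
Cxcl10: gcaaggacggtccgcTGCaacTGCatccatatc
Cx3cl1: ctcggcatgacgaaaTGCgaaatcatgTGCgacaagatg
The cysteine codons were adjacent in the 3 CC genes, 1 codon apart in the 5 CXC genes and 3 codons apart in Cx3cl1. The ELR codons stood directly before the first cysteine codon in Cxcl1, Cxcl2 and Cxcl5 and were missing from Cxcl12 and Cxcl10.

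The mouse libraries held 10097555 to 17397651 counts in MS-5 cells alone and 29495404 to 34615602 in Adh. Human counts made up 18.3 to 28.2% of all counts of an Adh library. Levels are given as CPM, the count relative to the library total after scaling by the trimmed mean of M values (TMM), over the mouse counts only, so that the number of REC-1 cells in a library does not enter the denominator. Mouse stromal genes such as Col1a1, Col1a2, Vim and Sparc were high in all 8 libraries, whereas Thy1 was at 0 and Lepr reached at most 10 counts. Of 8 mouse leukocyte markers, Ptprc, Cd3e, Itgam and Adgre1 were among those at 0 in every library, and the summed level of all 8 was 2.19 to 3.58 CPM in MS-5 cells alone and 2.13 to 3.57 CPM in Adh. The leukocyte markers with enough counts to be fitted differed in opposite directions within that sum, and neither passed the test: Csf1r was at 1.16 ± 0.332 CPM alone and 0.594 ± 0.259 in Adh, and Lyz2 at 1.57 ± 0.282 and 2.21 ± 0.396 CPM (SD, n = 4 each). The endothelial markers Cdh5 and Kdr were also at 0, and the summed level of the 4 endothelial markers did not exceed 0.177 CPM.

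Of the 9 chemokines, 6 had enough counts to be fitted and 3 were at or near 0. In Adh libraries Ccl2, Ccl7, Cxcl1 and Cxcl5 were lower than in MS-5 cells alone, and Cxcl12 and Cx3cl1 were higher. Changes are log2 fold changes of Adh over MS-5 alone from a fit to all 12201 genes with enough counts, whose median was -0.002 and whose quartiles were -0.087 and 0.086. In bulk RNA a smaller share of cells that make a transcript and less of it in each cell cannot be told apart. The study gives the REC-1 fractions as independent experiments but says nothing of the kind for MS-5 alone, so errors and p-values measure the spread between these libraries, which may be partly technical.

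Ccl2 (ENSMUSG00000035385) attracts monocytes through CCR2. In replicates 1 to 4 of MS-5 cells alone it stood at 108, 126, 113 and 122 CPM, and in those of Adh at 77.8, 80.7, 69.3 and 76.3 CPM. Every Adh library lay below every library of MS-5 cells alone, and within each group the libraries were close to each other. The mean was 117 ± 8.21 CPM alone and 76.0 ± 4.82 CPM in Adh (SD, n = 4 each), a log2 fold change of -0.62 ± 0.07 (SE), or 0.649 times the level alone.

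Ccl7 (ENSMUSG00000035373), a ligand of CCR1, CCR2 and CCR3, showed the same direction. Its levels were 194, 197, 179 and 189 CPM in MS-5 cells alone and 147, 146, 124 and 135 CPM in Adh. Again the groups did not overlap, and replicate 3 was the lowest library of each group. The mean was 190 ± 8.01 CPM alone and 138 ± 10.7 CPM in Adh (SD, n = 4 each), and the log2 fold change of -0.46 ± 0.06 (SE) was smaller in size than that of Ccl2. Within a library, the CPM of Ccl7 was 1.62 ± 0.117 times that of Ccl2 in MS-5 cells alone and 1.81 ± 0.0514 times in Adh (SD, n = 4 each). Ccl5, which attracts T cells and monocytes, had no count in any of the 8 mouse libraries. A count of 0 allows 3 counts per library, which is up to 0.299 CPM in MS-5 cells alone and up to 0.102 CPM in Adh, and these limits cover counting error only. Most low counts were even, and if each read pair had been counted as 2, the limit would be 6 counts, or up to 0.597 CPM alone and 0.204 CPM in Adh.

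**Figure D1:**
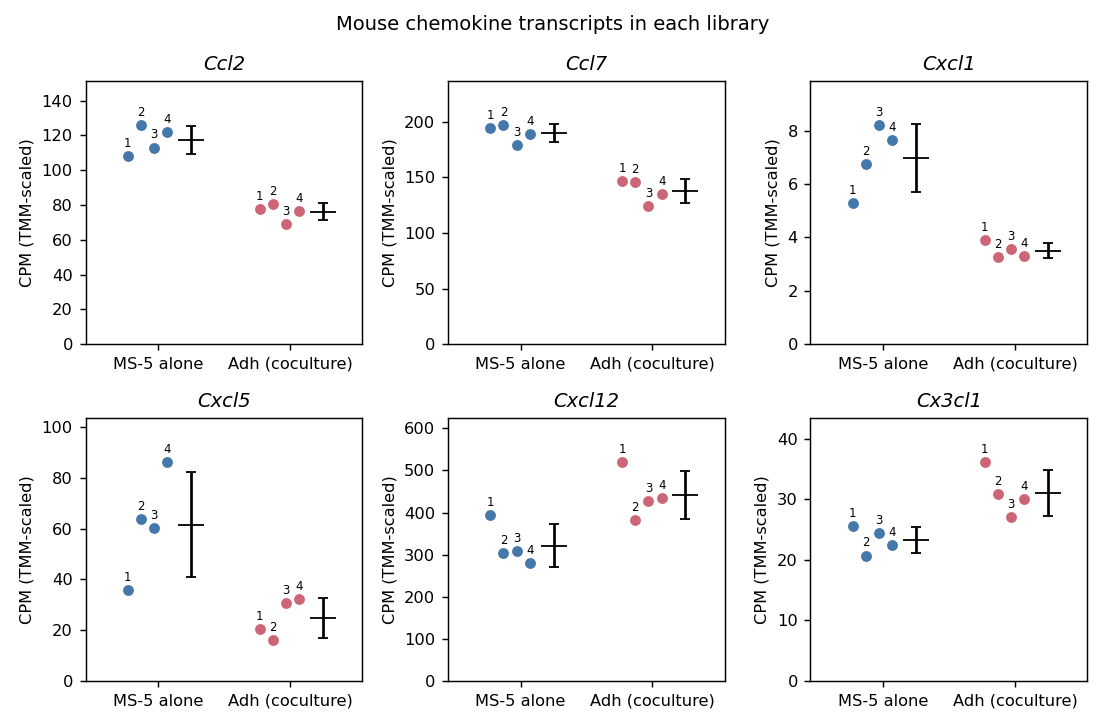
Level of the 6 chemokines with enough counts in each mouse library, as TMM-scaled CPM on axes that start at 0, with replicate numbers above the points. Horizontal lines are means and bars are ± SD (n = 4 per group). The points of MS-5 alone and Adh are apart for every gene but Cxcl12, where replicate 1 of MS-5 alone (394 CPM) is above replicate 2 of Adh (383 CPM).

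Among the ELR chemokines, which act on CXCR2, Cxcl5 (ENSMUSG00000029371) had the largest difference of the 6. It was at 35.8, 63.6, 60.4 and 86.4 CPM in replicates 1 to 4 of MS-5 cells alone and at 20.3, 16.1, 30.5 and 32.1 CPM in Adh. The groups did not overlap, but both were wide: the highest library was 2.41 times the lowest in MS-5 cells alone and 1.99 times the lowest in Adh. The lowest library of MS-5 cells alone was 11.5% above the highest Adh library. The means were 61.5 ± 20.7 and 24.7 ± 7.78 CPM (SD, n = 4 each), a log2 fold change of -1.31 ± 0.23 (SE), and only 9 of the 12201 fitted genes had a lower one.

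Cxcl1 (ENSMUSG00000029380) was the least abundant of the fitted chemokines. Its level was 5.30, 6.77, 8.22 and 7.67 CPM in MS-5 cells alone and 3.9, 3.27, 3.57 and 3.30 CPM in Adh, on 68 to 142 counts per library. All 4 Adh libraries were below all 4 of MS-5 cells alone, and replicate 1 of MS-5 cells alone was the closest to Adh, as it was for Cxcl5 and Ccl2. The mean was 6.99 ± 1.27 CPM alone and 3.51 ± 0.291 CPM in Adh (SD, n = 4 each), with a log2 fold change of -0.99 ± 0.17 (SE). The third ELR gene, Cxcl2, had 1 count in all 8 libraries together, in replicate 2 of Adh, so no fold change is given.

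Cxcl12 (ENSMUSG00000061353), the ligand of CXCR4 and ACKR3, went the other way and was the most abundant of the 9 by CPM. It stood at 394, 304, 309 and 279 CPM in MS-5 cells alone and at 521, 383, 428 and 435 CPM in Adh. The groups overlapped, because replicate 1 was the highest library of each group and its value in MS-5 cells alone exceeded replicate 2 of Adh. Within every replicate number, however, the Adh library was the higher one. The mean was 321 ± 50.2 CPM alone and 442 ± 57.6 CPM in Adh (SD, n = 4 each), a log2 fold change of 0.46 ± 0.10 (SE).

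Cx3cl1 (ENSMUSG00000031778) was also higher in Adh, at a level below that of Cxcl12. It measured 25.5, 20.7, 24.4 and 22.4 CPM in MS-5 cells alone and 36.2, 30.8, 27.1 and 30 CPM in Adh. No Adh library was as low as the highest library of MS-5 cells alone, and replicate 1 was the highest of each group. The mean was 23.3 ± 2.15 CPM alone and 31.1 ± 3.78 CPM in Adh (SD, n = 4 each), with a log2 fold change of 0.41 ± 0.10 (SE). The transcripts of its sheddases differed less: the log2 fold change was 0.11 ± 0.06 (SE) for Adam10 and 0.05 ± 0.06 for Adam17. Cxcl10, an interferon-induced ligand of CXCR3, had 1 mouse count in all 8 libraries together, in replicate 1 of Adh. The limits given for Ccl5 apply to the libraries of Cxcl10 and Cxcl2 that had no count. They do not cover the Adh library of each gene that had 1 count.

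**Figure D2:**
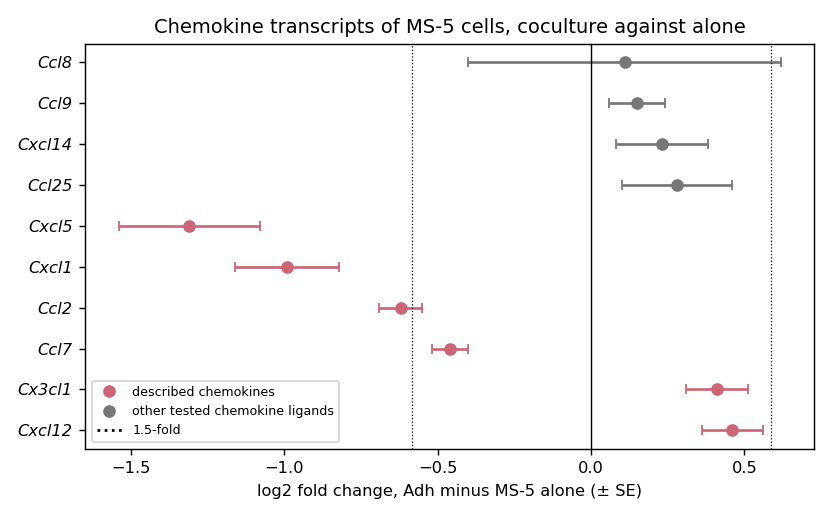
Log2 fold change (Adh over MS-5 alone) with its SE from the edgeR fit (4 libraries per group) for the 6 described chemokines in red and the 4 other chemokine ligands with enough counts in grey. Dotted lines mark a 1.5-fold difference. Cxcl5, Cxcl1, Ccl2 and Ccl7 lie left of 0 and Cxcl12 and Cx3cl1 right of it, while the grey points lie between 0.11 and 0.28. The grey genes were left over when the red ones were listed with this contrast known.

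A gene was called when its adjusted p-value was at most 0.05 and its fold change at least 1.5. Of the 9 chemokines 3 met both conditions, Ccl2, Cxcl1 and Cxcl5, against 0.205% of the 12201 fitted genes in either direction. All 3 were lower in Adh, as were 0.164% of fitted genes that met them, and 0.041% met them on the higher side. Groups did not overlap for 5 of the 9 chemokines, against 6.74% of fitted genes. Of these 5, 4 were lower in Adh, against 3.68% of fitted genes, and Cx3cl1 was higher, against 3.06%. Nothing is read from these shares, because the 9 genes were listed with this contrast known. Single libraries decided some of these calls. Ccl2, whose fold was 1.54, dropped to a log2 fold change of -0.58 and lost its call without Adh replicate 3. Cxcl5 lost its call without replicate 2, 3 or 4 of MS-5 cells alone, at log2 fold changes of -1.29, -1.31 and -1.10. Cxcl1 lost its call without replicate 3 or 4 of MS-5 cells alone (-0.89 and -0.94) and when all libraries were thinned to the smallest one (-0.91).

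The human share of counts differed between the Adh libraries, at 28.2, 26.0, 18.3 and 20.2% in replicates 1 to 4. Cxcl5 was at 20.3 and 16.1 CPM in the pair with the higher shares and at 30.5 and 32.1 CPM in the pair with the lower ones, whereas Ccl2, Ccl7 and Cx3cl1 were each higher in both libraries of the first pair than in both of the second. Cxcl1 and Cxcl12 were not ordered in either way. MS-5 cells alone, which hold no REC-1 cells, also differed between replicate numbers, with Cxcl5 at 35.8, 63.6, 60.4 and 86.4 CPM in replicates 1 to 4. By the same pairs of numbers Ccl7 was ordered there as in Adh, whereas Ccl2, Cxcl5 and Cx3cl1 were not. With 4 libraries no relation was computed, and the part of this share or of the replicate number in the levels was not tested.

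Levels of different genes were compared per length, as RPKM over the union of a gene's exons. In MS-5 cells alone the order from high to low was Ccl7 (237 ± 9.99 RPKM), Ccl2 (103 ± 7.22), Cxcl12 (39.3 ± 6.14), Cxcl5 (33.0 ± 11.1), Cx3cl1 (5.92 ± 0.546) and Cxcl1 (3.73 ± 0.679) (SD, n = 4). The neighbours Cxcl12 and Cxcl5 did not differ beyond their spread, with libraries from 34.1 to 48.2 and from 19.2 to 46.4 RPKM. In Adh the order of the means was unchanged at 172 ± 13.4 RPKM for Ccl7, 66.8 ± 4.24 for Ccl2, 54.0 ± 7.05 for Cxcl12, 13.3 ± 4.18 for Cxcl5, 7.90 ± 0.962 for Cx3cl1 and 1.87 ± 0.155 for Cxcl1. There Cxcl12 came within reach of Ccl2, with libraries from 46.9 to 63.8 against 60.9 to 70.9 RPKM, and Cx3cl1, from 6.91 to 9.21 RPKM, overlapped Cxcl5, from 8.64 to 17.2 RPKM. Cxcl12 and Cxcl5 did not overlap in Adh.

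The choice of length moved this order. The exons of Cxcl12 cover 8176 bases, but the coding transcript used for its sequence has 3132, and for Ccl2 the lengths are 1138 and 813 bases. With the length of the coding transcript, an alternative added after the data were seen, Ccl2 was above Cxcl12 in MS-5 cells alone (144 ± 10.1 against 103 ± 16.0 RPKM) and below it in Adh (93.5 ± 5.93 against 141 ± 18.4 RPKM), without overlap of the libraries in either condition. Which transcript of Cxcl12 the cells made is not resolved by gene counts. The order of Cxcl1 and Cx3cl1 in MS-5 cells alone also depended on the length.

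**Figure D3:**
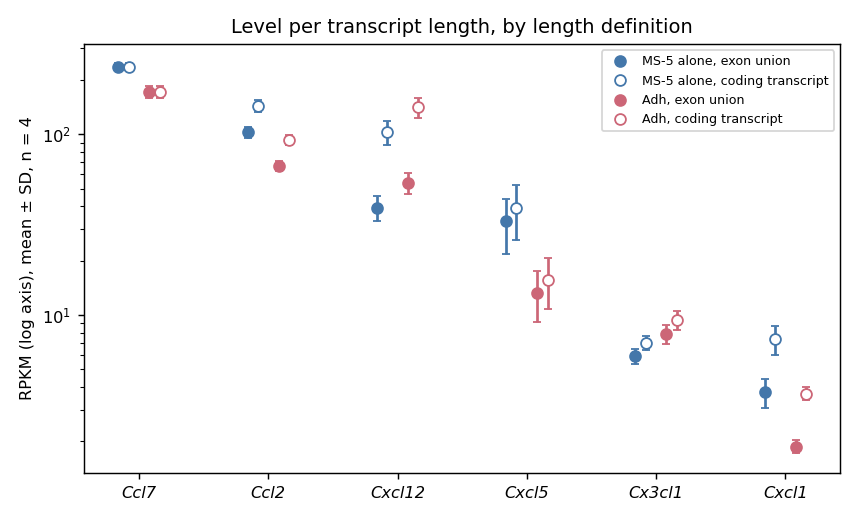
Level per transcript length (RPKM, log axis) of the 6 chemokines with enough counts, as mean ± SD of 4 libraries, for MS-5 alone in blue and Adh in red. Filled points use the union of exons and open points the coding transcript. Cxcl12 in Adh is at 54.0 RPKM by the first length and at 141 RPKM by the second, which places it below or above Ccl2.

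The makeup of the chemokine transcripts was followed as shares of their sum. The RPKM of the 9 genes summed to 422 ± 16.1 in MS-5 cells alone and 316 ± 18.3 in Adh (SD, n = 4 each). This difference depends on the length used, since without division by length the summed CPM overlapped, at 694 to 762 alone and 660 to 806 in Adh. CC chemokines made up 80.6 ± 1.18% of the RPKM sum alone and 75.6 ± 2.66% in Adh, and the ELR chemokines 8.68 ± 2.59% and 4.84 ± 1.5%. Both shares overlapped between the conditions. The CC share was 79.2 to 81.7% alone and 73.6 to 79.5% in Adh, and the ELR share 5.34 to 11.6% and 3.27 to 6.23%. By the length of the coding transcript the CC share in MS-5 cells alone was 70.9%, and that in Adh was not computed. The share of CXC chemokines without ELR, which was nearly all Cxcl12, was 9.35 ± 1.66% alone and 17.1 ± 1.76% in Adh, and by the length of the coding transcript it was 19.1% and 32.3%. Cx3cl1 held 1.41 ± 0.177% and 2.49 ± 0.163%. Ratios within a library do not depend on the scaling between libraries. The ratio of Cxcl12 to Ccl2 in CPM was 2.28 to 3.65 in MS-5 cells alone and 4.75 to 6.70 in Adh, and that of Cxcl12 to Cxcl5 was 3.23 to 11 and 13.5 to 25.7. Neither ratio overlapped between the conditions, whereas the ratio of Cxcl5 to Cxcl1 had means of 8.69 ± 2.05 and 7.10 ± 2.40 (SD, n = 4 each), a difference within the spread.

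Several of these genes are neighbours on the chromosome. On GRCm38, Ccl2 (chromosome 11, 82035571 to 82037453, plus strand) lies 8.26 kb before Ccl7 (82045712 to 82047525, plus strand). The genes that follow had few counts: Ccl11 had at most 6 counts in a library, Ccl12 none, Ccl8 2 to 22 and Ccl1 at most 2. The ELR genes share a region of chromosome 5, where Cxcl5 (90759360 to 90761624, plus strand) starts 132 kb before Cxcl1 (90891241 to 90893115) and Cxcl2 (90903871 to 90905938) begins 10.8 kb after the end of Cxcl1. Of the genes between Cxcl5 and Cxcl1, Ppbp had 2 to 6 counts in a library, Pf4 at most 2, and Cxcl3 and Cxcl15 none. Ccl8 was fitted all the same, with a log2 fold change of 0.11 ± 0.51 (SE). Its 95% interval of -0.98 to 1.19 includes the values of Ccl2 and Ccl7, so the direction of Ccl8 is not resolved. The other fitted genes of the stretch from Ccl2 to Ccl1, Ccl2 and Ccl7, were lower in Adh. Farther along chromosome 11, Ccl9 (83572919 to 83578636) was also fitted. Its log2 fold change was 0.15 ± 0.09 (SE), and its groups overlapped. In the Cxcl5 region the fitted genes were Cxcl5 and Cxcl1, both lower in Adh. Cxcl12 (chromosome 6, 117168535 to 117181367) and Cx3cl1 (chromosome 8, 94772009 to 94782427), which of the 9 genes were higher, lie on other chromosomes.

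**Figure D4:**
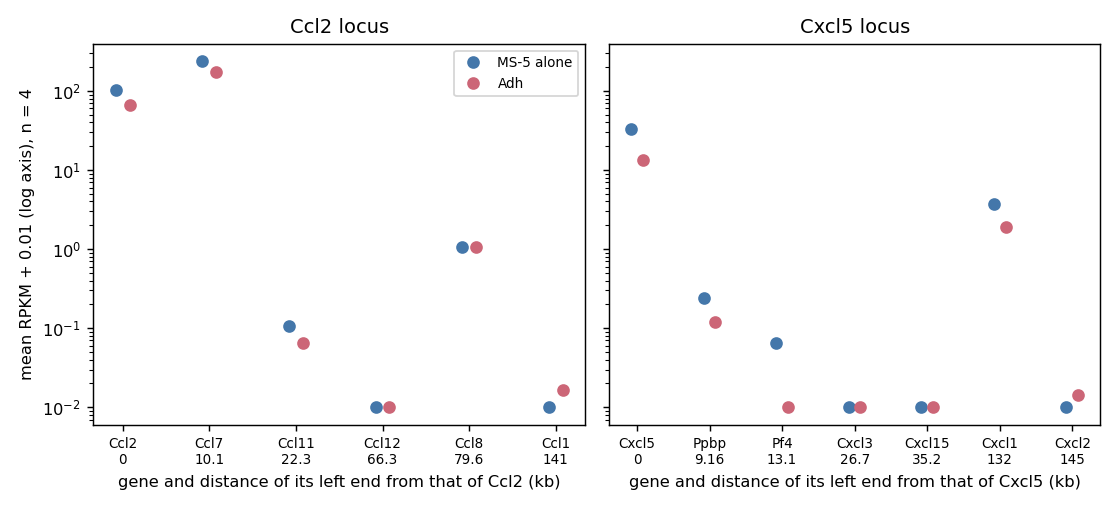
Mean RPKM plus 0.01 (log axis, n = 4 libraries) of the genes of the Ccl2 region, left, and the Cxcl5 region, right, for MS-5 alone in blue and Adh in red, with the distance of each gene's left end from that of the first gene in kb. Ccl2 and Ccl7 on the left and Cxcl5 and Cxcl1 on the right stand above their neighbours, and each is lower in Adh. Ccl8, the next highest on the left, was at 1.04 and 1.06 RPKM.

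Chemokine mRNAs often carry AU-rich elements in their 3′ untranslated regions, which are known to bind proteins of the Zfp36 family that shorten the life of an mRNA. The letters ATTTA were searched on the sense strand of the 3′ untranslated region of each coding transcript, together with the longer form TATTTAT, which contains it. Cxcl2 had 11 matches to ATTTA, of which 7 lay in the longer form, and Cxcl1 had 7 and 6. Cxcl5 had 5 and 1, Cxcl12 3 and 0, Ccl7 and Cxcl10 2 and 0, Ccl2 1 and 0, Cx3cl1 1 and 1, and Ccl5 none. These counts are over whole 3′ untranslated regions, which run from 199 bases in Ccl5 to 2768 bases in Cxcl12. Within the first 300 bases after the stop codon Cxcl2 had 7 matches to ATTTA and 5 to TATTTAT, Cxcl1 had 6 and 5, Ccl7, Cxcl5 and Cxcl12 had 1 and 0, and Cxcl10 and Cx3cl1 had none. The regions of Ccl2 and Ccl5 are shorter than this window. Of 15616 mouse genes with a window of that length, 34.0% held ATTTA and 6.93% held TATTTAT in it. The densest runs were those of Cxcl1 and Cxcl2, shown with each ATTTA in capitals.
Cxcl1: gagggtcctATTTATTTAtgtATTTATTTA
Cxcl2: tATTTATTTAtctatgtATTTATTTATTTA
These runs are nearly alike, although Cxcl1 had at least 68 counts in every library and Cxcl2 at most 1. The matches describe the letters only. None of the 7 mRNA decay genes listed was called by edgeR or by DESeq2. Of them 1, Zfp36l2, had an unadjusted p-value under 0.05 by edgeR, with a log2 fold change of 0.15 ± 0.07 (SE).

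The other chemokine ligands of the mouse were those left after the described chemokines had been listed with this contrast known. Small differences among them can follow from that choice. Their values are therefore given as a description and not as an independent frame. Of 29 further ligand genes, 14 had no count in any of the 8 libraries, 11 had at most 20 counts in any library and 4 were fitted. None of the 4 was called by edgeR or DESeq2, and none had an unadjusted p-value under 0.05 by edgeR. Ccl9, a ligand of CCR1, was at 37.9 ± 3.50 CPM alone and 42.0 ± 3.92 CPM in Adh (SD, n = 4 each), a log2 fold change with a 95% interval of -0.04 to 0.33. Cxcl14 was at 28.5 ± 6.26 and 33.4 ± 6.11 CPM (interval -0.08 to 0.54), and Ccl25, a ligand of CCR9, at 3.32 ± 0.693 and 4.06 ± 0.441 CPM (interval -0.11 to 0.68). Ccl8, a relative of Ccl2 and Ccl7, was at 0.533 ± 0.379 and 0.544 ± 0.138 CPM, and its interval of -0.98 to 1.19 was the widest of the 4 and includes the value measured for Ccl2. The median log2 fold change of these 4 genes was 0.19. Of 23 mouse chemokine receptor genes, Ccr10 alone had enough counts for the fit. It was not called by edgeR or DESeq2 (0 receptor genes at an unadjusted p-value under 0.05 by edgeR).

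Genes of pathways that are known to control chemokine transcripts were counted as well. Of 19 genes induced through NF-kB, 15 were fitted and none was called by edgeR or DESeq2. A call also asks for a fold of at least 1.5, and DESeq2 p-values without that minimum are not given here. Over all fitted mouse genes, 1374 of 12201 had an unadjusted p-value under 0.05, against which the counts of such genes in these lists are to be read. In this list the 3 were Tnfaip3, an inhibitor of the pathway (log2 fold change -0.35 ± 0.08 SE, edgeR adjusted p = 0.0633), Csf1 (-0.23 ± 0.08) and Tnip1 (0.17 ± 0.07). Of 18 interferon-induced genes, 12 were fitted and none was called by either tool. The genes with an unadjusted p-value under 0.05 included Bst2 (0.36 ± 0.11, edgeR adjusted p = 0.194) and Isg15 (0.85 ± 0.40, edgeR adjusted p = 0.44). Of 13 proteases known to act on chemokines, 8 were fitted and none was called by edgeR. Mmp13, a collagenase, had a log2 fold change of 0.66 ± 0.19 (edgeR adjusted p = 0.165) and was the 1 gene of the 3 groups that DESeq2 called. These 6 genes were picked from their lists after their values were seen.

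The genes whose pattern over the 8 mouse libraries was most like that of 3 of the chemokines were found by the root-mean-square difference of centred log2 CPM. For Ccl2 they were Tfrc (0.0799), Serpinb9b (0.0973) and Epha2 (0.0980), against a median of 0.353 over all fitted genes. For Cxcl12 they were Txnip (0.0675), Aldh6a1 (0.0822) and Spp1 (0.0872), with a median of 0.323. The nearest genes to Cxcl5 were farther off: Hspa1a (0.253), Eid3 (0.343) and Aqp5 (0.369) with a median of 0.797, and their mean levels were 2.77 CPM or less. Among the 6 chemokines themselves the closest pairs were Ccl2 with Ccl7 (0.105) and Cxcl12 with Cx3cl1 (0.131), and the farthest was Cxcl5 with Cxcl12 (1.04). All these values are descriptions over libraries of 2 conditions, and genes that differ between them in the same direction come out alike.

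The human genes of the same names were examined because Adh libraries hold RNA of both species. In the 4 Adh libraries together, Cxcl12 had 57470 mouse and 0 human counts, Ccl7 17817 and 0, Ccl2 9819 and 0, Cxcl5 3229 and 0, and Cxcl1 456 and 0. Cx3cl1 had 4021 mouse and 2 human counts. The direction was opposite for Cxcl10, with 1 mouse and 1058 human counts, and for Ccl5, with 0 mouse and 73 human counts. In REC-1 cells CXCL10 stood at 13.3 ± 2.83 CPM in Sep, 27.6 ± 4.02 in Susp and 27.0 ± 3.77 in Adh, and CCL5 at 1.38 ± 0.711, 1.78 ± 0.586 and 1.83 ± 0.834 CPM (SD, n = 4 each). Each chemokine with counts above the limit of 3 was thus assigned to 1 species almost alone.

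**Figure D5:**
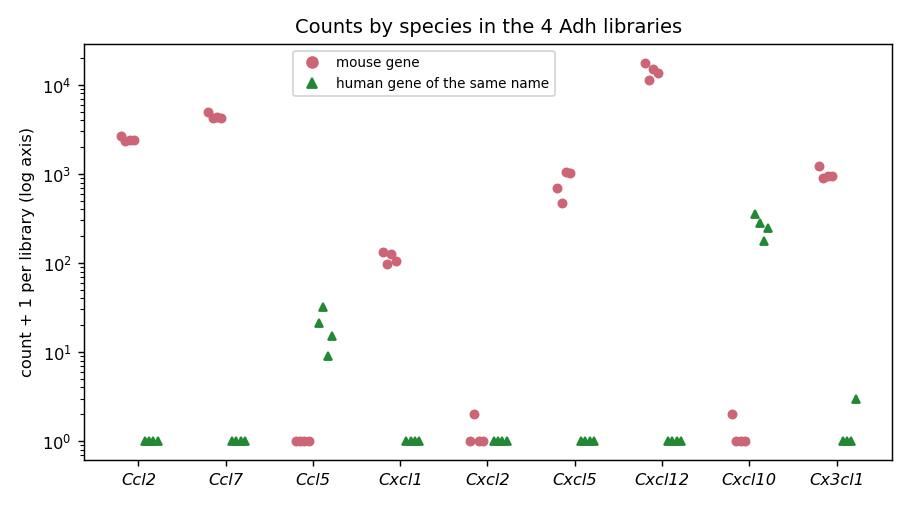
Counts plus 1 (log axis) in each of the 4 Adh libraries for the 9 mouse chemokine genes as red circles and the human genes of the same name as green triangles. Human points lie at 0 counts for 6 of the genes, and mouse points at 0 or 1 count for Ccl5, Cxcl2 and Cxcl10, where human CXCL10 has 176 to 354 counts.

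The receptors of these ligands were read from the human counts of REC-1 cells. Of 12 receptor genes that bind the products of the 9 chemokines, 3 reached a mean of 1 CPM in any fraction. CXCR4, the receptor of Cxcl12, was highest at 50.5 ± 3.36 CPM in Sep, 41.1 ± 2.06 in Susp and 39.5 ± 4.49 in Adh (SD, n = 4 each). CCR2, the receptor of Ccl2 and Ccl7, was at 6.07 ± 1.34, 4.19 ± 0.902 and 5.10 ± 0.928 CPM. ACKR3, which binds Cxcl12 and takes it up, was at 5.76 ± 0.871, 5.28 ± 0.820 and 5.30 ± 1.10 CPM. The ELR receptors CXCR1 and CXCR2 had no count in any of the 12 libraries, nor had CCR3 and ACKR1. CX3CR1, the receptor of Cx3cl1, had at most 2 counts in a library, ACKR2 at most 5, CXCR3 at most 12 and CCR1 at most 16.

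Between Adh and Susp, which both come from the coculture, the receptor genes were compared in the edgeR fit of 12861 human genes, of which 0.778% were called. Of 23 human chemokine receptor genes 6 were fitted, none was called by edgeR or DESeq2, and none had an unadjusted p-value under 0.05 by edgeR, against 2316 of all 12861 genes. The log2 fold change of Adh over Susp was -0.06 for CXCR4 (95% interval -0.27 to 0.15, edgeR adjusted p = 0.77), 0.29 for CCR2 (-0.19 to 0.76, adjusted p = 0.498) and 0.02 for ACKR3 (-0.40 to 0.45, adjusted p = 0.958). A p-value above the threshold does not show that the fractions were alike. For the ligands most abundant in the stroma, REC-1 cells thus held transcripts of the receptors of Cxcl12, Ccl2 and Ccl7, while the transcripts of the receptors of Cxcl1, Cxcl5 and Cx3cl1 were at or near 0. The ligands here are mouse genes and the receptors human ones, and binding between the species was not tested. Transcript levels say nothing of receptor protein at the surface. The study measured surface CXCR4 by flow cytometry and reports it as low on REC-1 cells. It also reports that adhesion of REC-1 cells to stroma did not need CXCR4.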

How the data were processed

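Gene counts from RNA-seq were taken from 8 mouse columns (MS-5 alone, Adh) and 12 human columns (Sep, Susp, Adh), which come from 16 samples. The authors purified poly-A RNA, prepared TruSeq libraries that do not keep strand, sorted read pairs by species using Xenome, aligned them with STAR 2.5.1b (GRCh38 and GRCm38) and counted on genes with featureCounts (Subread 1.5.2). The deposited values were counts, whole numbers without normalization. Of counts from 1 to 20, 65.0 to 79.2% per library were even. A further 20 columns that belong to none of these samples were left out. Human totals ranged from 7758979 to 21467832 counts per library.

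Groups were fitted in R 4.3.3 with edgeR 4.0.16 (filterByExpr, TMM, quasi-likelihood F-test), Benjamini-Hochberg adjustment over all fitted genes, and called at an adjusted p of at most 0.05 and a fold of at least 1.5. The mouse groups had 1 model and the REC-1 groups another. DESeq2 1.42.0, other factors, no low-count filter, thinning, a replicate block, halved counts (added after seeing the data) and leaving out each library were alternatives. The script was tested on simulated counts. CPM used TMM factors, and likeness used log2 CPM with a prior count of 2. Gene positions, exon lengths and transcripts came from GENCODE M21 (GRCm38), with all 9 symbols matched.

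The 9 genes, the gene lists and the rule for named genes were chosen with earlier results of these data known. The rule takes the 9 genes, called genes of the lists, the 3 genes most like Ccl2, Cxcl5 and Cxcl12, receptors of the 9 ligands and the human genes of the same names. The other genes named were chosen after their values were seen, and some genes of the lists are not reported here. No libraries were duplicates: the lowest chi-square per degree of freedom of any pair was 4.50 for mouse and 4.19 for human counts.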

Additional observations from a re-analysis of the deposited data

Results flagged for a closer look

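A library stood apart from the other 3 of its group in 2 of 74 groups of values examined with Dixon's test at the 95% level, and chance flags about 5 groups in 100. Ccl9, a mouse chemokine outside the 9 described, was at 36.1 CPM in 1 Adh library and at 43.7 to 44.1 CPM in the others. The human receptor CXCR5, which binds none of the 9 ligands, was at 39.3 CPM in 1 Adh library and at 50.2 to 51.9 CPM in the others. None of the values of the 9 chemokines was flagged in either group.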

How the results depend on the processing

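The log2 fold changes of the 6 fitted chemokines kept their direction under all 14 alternatives and moved by less than the spread between libraries in all 84 values. The ranges were -0.67 to -0.58 for Ccl2, -0.49 to -0.41 for Ccl7, -1.11 to -0.89 for Cxcl1, -1.5 to -1.1 for Cxcl5, 0.37 to 0.57 for Cxcl12 and 0.33 to 0.48 for Cx3cl1. The count of called mouse genes, 25, was less stable: 38 with DESeq2, 45 without a low-count filter, 94 without a fold minimum, and 8 to 36 when a library was left out (8 without MS-5 replicate 3, 11 without MS-5 replicate 4, 13 without MS-5 replicate 2 or Adh replicate 3). The cause was not tested. Of the further lists, 1 gene (Mmp13) was called with DESeq2, 1 without the low-count filter and 1 with the replicate block, against 0. No other chemokine ligand or human receptor gene was called under any alternative run. For the ligands nothing is read from this, because they were left over from a list drawn up with this contrast known.

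The labels do not say what the replicate numbers mark, and they were not taken as pairs. Same-numbered libraries deviated together from their group means (r above 0.1 over genes) for 2 of 4 numbers in the mouse comparison. There r was 0.39 for number 1 and 0.25 for number 4. Between Adh and Susp this held for 1 of 4. Whether the numbers mark pairs is therefore not settled. With the replicate number as a block, 45 mouse genes were called, Ccl2, Cxcl1 and Cxcl5 among them. The block gave Cxcl12 a log2 fold change of 0.46 with an SE of 0.05 in place of 0.10. For Cxcl5 it gave -1.29 with an SE of 0.12 in place of 0.23, while the SE of Cxcl1 stayed at 0.17. The limit of 3 counts applies to the libraries of Ccl5, Cxcl2 and Cxcl10 that had no count. Of the 6 fitted chemokines Cxcl1 had the fewest counts, 68 to 142 per library, and Cxcl5 had the largest SE without the block, 0.23.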
